A study of Sus scrofa with 28 samples.

Results

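Cytosolic ribosomal protein genes were taken as the protein-coding genes of the RefSeq annotation of the pig genome (Sscrofa11.1) whose symbols are RPL, RPS or RPLP followed by a digit, or RPSA. The 10 genes of RPS6K kinases, which match the same letters, were left out. This gave 85 of the 19484 protein-coding genes on 19 chromosomes. Of these, 52 carry the name of a large (60S) subunit protein and 32 that of a small (40S) subunit protein. RPS19BP1 also matches the rule, although its product is a binding partner of a ribosomal protein and a regulator of the deacetylase SIRT1, not a ribosomal protein. The symbol RPL18 belongs to 2 gene models, one on chromosome 1 and one on chromosome 6, which are kept apart here. Ribosomal protein genes with other symbols (such as FAU, which encodes a fusion with a ubiquitin-like protein, and RACK1) are outside the rule and are described with the translation factors.

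The ribosome joins amino acids into protein. Its small subunit binds the mRNA and decodes it, and its large subunit forms the peptide bonds and holds the tunnel through which the new chain leaves. Every dividing or secreting cell needs its subunit proteins in nearly equal amounts, and the liver, which secretes most plasma proteins, uses ribosomes heavily. In mammals the ribosomal protein genes are short, have promoters active in nearly all tissues, and yield mRNAs with a pyrimidine tract at the start through which growth signals set their translation.

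Liver chromatin of Zlotnicka White pigs, all female and of a native breed from Poland, was profiled by ATAC-seq, in which a transposase cuts accessible DNA and tags it for sequencing. The pigs were 180 days old, were kept on the same feed and housing, and were slaughtered at 100 ± 2 kg. There are 28 libraries, 7 in each of 4 groups labelled as high fat content or low fat content, each with a number, 200 or 600, that is left unexplained. These labels are entered as shear force, and no fat measurement, genotype or treatment is given. All groups share the liver source, digestion to a cell suspension with Accutase and slow freezing. Library names in the deposited table carry one lane tag for the 200 set and another for the 600 set, so label and lane cannot be told apart.

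The deposited table lists peaks per library, between 39 and 17652 of them, with no read counts, so sequencing depth is unknown. A gene was called listed in a library when the centre of a peak lay within 1000 bp of either end of the gene. Both ends were used because the gene table used here gives no strand, so an end is not called a start. An unlisted gene is one where no peak was reported, which does not show that the site was inaccessible. Fewer cells with an accessible site and less access per cell cannot be told apart in such bulk libraries. Markers of the labelled tissue were looked up: 7 of 11 hepatocyte markers (63.6%) were listed in at least 1 library, beside 52.9% of protein-coding genes with a symbol. The marker share is near that of genes at large, so the count does not identify the tissue. HPX led in 11 libraries, with TTR and FGG in 8 each and ALB in 7, while APOB, CPS1, ASGR1 and HNF4A were listed in 0. Of the 8 Kupffer cell and macrophage markers only CD14 was listed, in 6 libraries. The 8 endothelial and stellate markers were listed in 0, and 3 of 8 lymphocyte markers (CD3D, NKG7 and CCL5) in 1 library each.

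Of the 85 genes, 54 (63.5%) were listed in at least 1 library, beside 47% of all protein-coding genes and 52.9% of those with a gene symbol. RefSeq models without a symbol were listed in 16.7% of cases, and since every ribosomal protein gene has a symbol, the genes with a symbol are the closer background. At least 3 libraries listed 37 of the genes (43.5%), beside 29.5% of all protein-coding genes and 33.4% of those with a symbol. At least 10 libraries listed 9 (10.6%), beside 7.82% and 8.98%. A further 28 genes were listed in 3 to 9 libraries, 9 in 2 libraries and 8 in 1 library. No gene of the set was listed in more than 13 libraries, while the most often listed protein-coding genes reached 23. With only the 1000 strongest peaks of each library that held as many, 13 of the 85 genes were listed, and the difference from all protein-coding genes was 2.16 percentage points in place of 16.5. These shares are descriptions and were not tested.

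The set is short in gene length, with a median of 3905 bp beside 25592 bp for all genes with a symbol. Among the genes up to 5000 bp, 36 of 54 ribosomal protein genes (66.7%) were listed beside 42.4% of the other genes with a symbol. Among longer genes the shares were closer, 18 of 31 (58.1%) beside 54.3%. All 9 genes listed in at least 10 libraries were among the short ones.

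**Figure D1:**
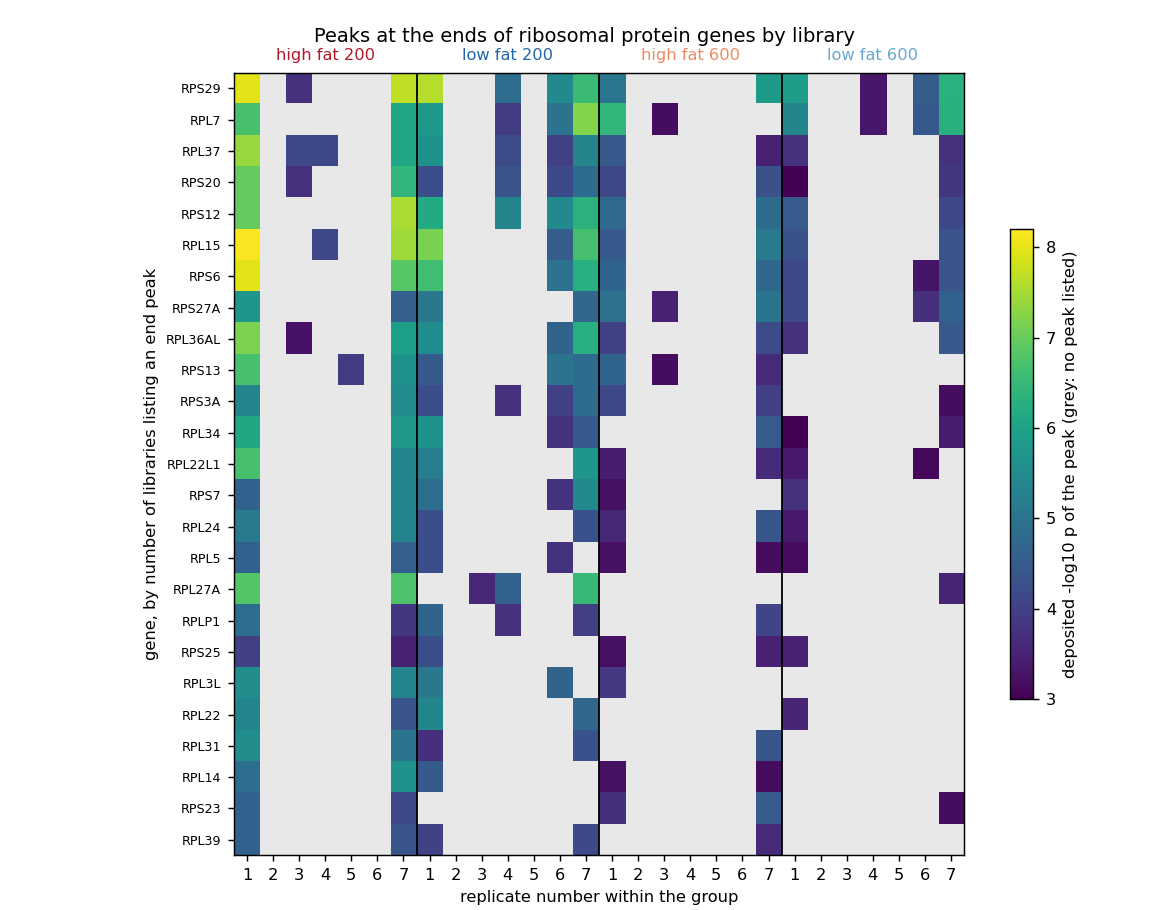
The 25 genes listed in at least 5 libraries (rows, ordered by the number of libraries that list them) in the 28 libraries (columns, by group and replicate number), coloured by the deposited −log10 p of the peak, with grey where no peak was listed. The most filled columns are high fat 200 replicates 1 and 7, which list 40 and 44 of all 85 genes, the upper rows recur in the same few replicates of all 4 groups, and 11 columns are grey throughout.

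The most often listed gene was RPS29, for a zinc-binding protein of the small subunit, on chromosome 1 from 179454923 to 179456847. In the high fat 200 libraries its −log10 p was 7.98 in replicate 1, 3.74 in replicate 3 and 7.70 in replicate 7. In the low fat 200 libraries it was 7.61 in replicate 1, 4.85 in replicate 4, 5.47 in replicate 6 and 6.54 in replicate 7. Both fat groups thus held strong and weak RPS29 peaks and their ranges overlapped. For high fat 600 the values were 5.04 in replicate 1 and 5.84 in replicate 7. In the low fat 600 libraries they were 5.92 in replicate 1, 3.32 in replicate 4, 4.54 in replicate 6 and 6.33 in replicate 7. The listing replicates of the 600 libraries were among those of the 200 libraries, and the remaining libraries listed no RPS29 peak. All 13 peaks lay at the upper end of the gene, with the median centre 49.5 bp outside it, and ranked high in their libraries, at a median percentile of 89.4 by −log10 p. The end of a gene of the signal recognition particle RNA lies close to that end, and 5 of the 13 centres were nearer to it than to the end of RPS29.

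RPL7, for a protein of the large subunit on chromosome 4 from 62602430 to 62605892, and RPL37, for a zinc-binding protein of the large subunit on chromosome 16 from 25800883 to 25803526, were each listed in 12 libraries. For RPL7, the high fat 200 libraries gave −log10 p of 6.68 in replicate 1 and 6.07 in replicate 7, and the low fat 200 libraries 5.81 in replicate 1, 3.91 in replicate 4, 4.97 in replicate 6 and 7.23 in replicate 7. The high fat 600 libraries gave 6.44 in replicate 1 and 3.17 in replicate 3, and the low fat 600 libraries 5.37 in replicate 1, 3.32 in replicate 4, 4.43 in replicate 6 and 6.29 in replicate 7. The RPL7 peaks stood apart from the others in shape, with a median width of 1846 bp and a median centre 797 bp outside the gene. A single library listed RPL7 when the centre had to lie within 500 bp. The end of RDH10, for a retinol dehydrogenase, lies in the same window, and 7 of the 12 centres were nearer to RDH10 than to RPL7.

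RPL37 peaks were narrower, with a median width of 609 bp, and their median centre was 154 bp outside the upper end. For high fat 200, −log10 p was 7.40 in replicate 1, 4.15 in replicate 3, 4.12 in replicate 4 and 6.07 in replicate 7. In the low fat 200 libraries it was 5.67 in replicate 1, 4.22 in replicate 4, 3.98 in replicate 6 and 5.36 in replicate 7. In the 600 libraries RPL37 was listed in replicates 1 and 7 of both fat groups, at 4.47 and 3.48 in high fat and at 3.75 in each low fat library. The high and low fat values overlapped in the 200 libraries. The end of CARD6 shares this window.

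RPS20, for a small subunit protein near the place where mRNA is bound, lies on chromosome 4 from 75762209 to 75763449 and was listed in 11 libraries. Its −log10 p was 6.94, 3.74 and 6.43 in high fat 200 replicates 1, 3 and 7, and 4.25, 4.36, 4.18 and 4.83 in low fat 200 replicates 1, 4, 6 and 7. It was 4.12 and 4.30 in high fat 600 replicates 1 and 7, and 3.04 and 3.85 in the low fat 600 replicates of the same numbers. The end of a long noncoding RNA gene lies in the same window, and 7 of the 11 centres were nearer to another gene's end than to that of RPS20. The replicates that listed RPS20 were a subset of those that listed RPS29, with a Jaccard index (shared libraries over libraries listing either) of 0.846. Among 4072 protein-coding genes listed in at least 5 libraries, 12 had exactly the 13 libraries of RPS29, the first by alphabet being ARMC1, GOPC and HSP90B1.

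Another 5 genes were listed in 10 libraries each. RPS12, whose peaks at SLC18B1 and RPS12 reached a median percentile of 88.1, ranged in −log10 p from 4.13 to 7.55 with a median of 5.42. RPL15 held the strongest peak of the set, at 8.15 in high fat 200 replicate 1, and its weakest, at 4.12, lay in replicate 4 of the same group. The end of NKIRAS1 lies in the RPL15 window, and 5 of the 10 peaks there were nearer to another gene's end than to that of RPL15. RPS6, the small subunit protein that S6 kinases phosphorylate in response to growth signals, ranged from 3.30 to 7.98, and all 10 of its peaks were nearest to its own end. RPS27A, which encodes ubiquitin fused to a small subunit protein, ranged from 3.47 to 5.75, but 8 of its 10 peaks were nearer to CLHC1. RPL36AL, an intronless copy of RPL36A in humans, ranged from 3.26 to 7.18, and its window holds the end of MGAT2, an enzyme of N-glycan synthesis.

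RPS13 and RPS3A, both for small subunit proteins, were listed in 9 libraries each, with −log10 p from 3.17 to 6.68 and from 3.16 to 5.51. RPL34, for a large subunit protein, was listed in 8 libraries at 3.04 to 6.09. All peaks of these 3 genes were nearest to their own ends. The number of listing libraries moved with the strength asked of a peak. With peaks at or above the median −log10 p of their label, RPL37 was listed in 5 libraries and RPS20 in 6. Among the 1000 strongest peaks per library, RPS29 was listed in 11 libraries, RPL7, RPS12 and RPL15 in 7 each, RPS6 in 5, RPS27A in 4, RPS13 in 3, RPL37 and RPL36AL in 2 each, RPS20 in 1, and RPS3A and RPL34 in 0. At RPS12, RPS6, RPS3A and RPL34 the listed −log10 p values of the high fat 200 libraries all lay above those of the low fat 200 libraries. They came from replicates 1 and 7 of high fat 200, which held 17652 and 11943 peaks against at most 8221 in low fat 200, and the part of library depth in this was not tested.

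**Figure D2:**
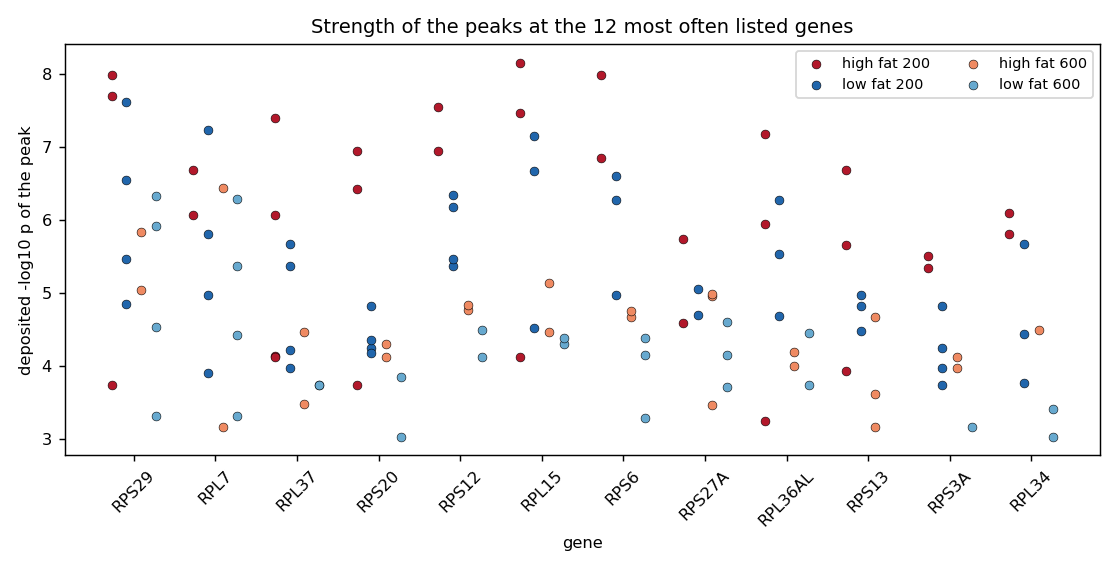
Deposited −log10 p (vertical axis) of each peak at the 12 most often listed genes (horizontal axis), 1 point per library and peak, coloured by group. The highest point is RPL15 in high fat 200 replicate 1 at 8.15, and in the 200 libraries the ranges of high and low fat points overlap except at RPS12, RPS6, RPS3A and RPL34.

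The small subunit genes were listed more often than the large subunit genes. At least 1 library listed 24 of 32 small subunit genes (75%) and 29 of 52 large subunit genes (55.8%), beside 52.9% of genes with a symbol. At least 3 libraries listed 59.4% of the small and 32.7% of the large subunit genes, beside 33.4% of genes with a symbol. The large subunit shares were thus near those of genes with a symbol. Within single libraries the small subunit share was also the higher one, in 14 of the 15 libraries with at least 1000 peaks. In high fat 200 replicate 1 the shares were 59.4% of the small and 40.4% of the large subunit genes, and in high fat 600 replicate 7 they were 46.9% and 26.9%. The exception was high fat 200 replicate 4, with 3.13% and 3.85%. The libraries list many of the same genes, so they are no independent counts of this difference, which was not tested.

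**Figure D3:**
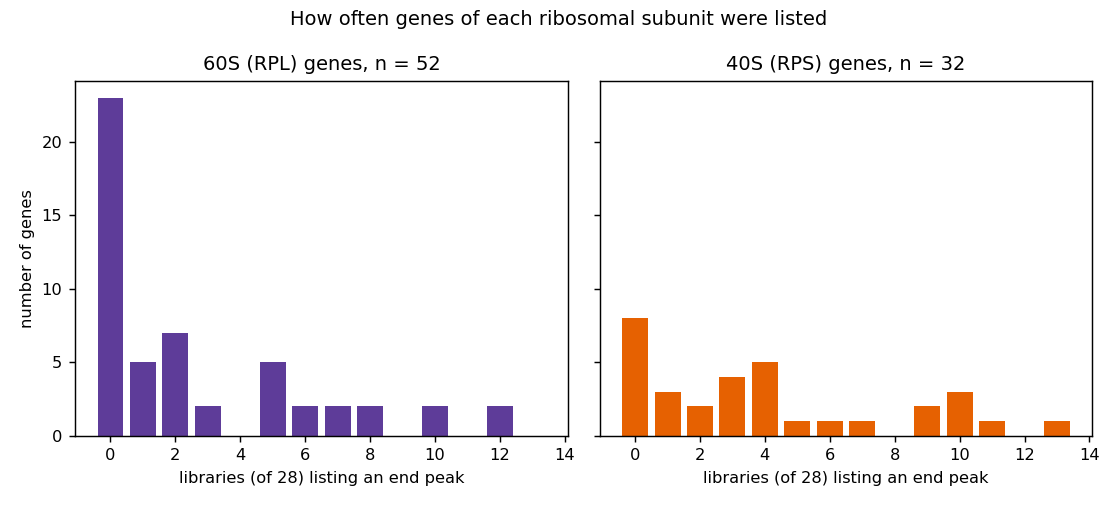
Number of genes (vertical axis) by the number of the 28 libraries that list an end peak (horizontal axis), for the 52 large subunit genes on the left and the 32 small subunit genes on the right. The bar at 0 libraries holds 23 large subunit and 8 small subunit genes, and the bar farthest to the right is RPS29 with 13 libraries.

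Proteins that work at the same place of the ribosome did not have the same listing. The groups in this paragraph were put together after their values were seen. Of the stalk proteins that bind translation factors on the large subunit, RPLP1 was listed in 6 libraries, RPLP0, the base of the stalk, in 2 and RPLP2 in 0. RPL5 and RPL11 travel with 5S rRNA and bind MDM2 when ribosome assembly fails: RPL5 was listed in 7 libraries and RPL11 in 0. Around the tunnel exit, RPL31 and RPL39 were listed in 5 libraries each, RPL35 in 3 and RPL19 in 1, while RPL4, RPL17, RPL23A and RPL26 were listed in 0. At the mRNA entry of the small subunit, RPS9 was listed in 1 library and RPS2 and RPS3 in 0. RPSA, a small subunit protein also known as a laminin receptor, was listed in 0.

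Of the 7 gene models named as paralogues, 4 were listed. They were RPL36AL in 10 libraries, RPL22L1 in 8, RPL3L, which in humans and mice is used in striated muscle in place of RPL3, in 5, and RPS27L in 4. Their parent genes gave 0 for RPL36A, 5 for RPL22, 2 for RPL3 and 0 for RPS27. None of the 7 peaks at RPL3L was nearest to its own end. The end of MSRB1 lies near the upper end of RPL3L, where 5 of these peaks were, and the other 2 lay at the lower end. RPL10L, RPL26L1 and RPL7L1 were listed in 0. How reads from near-identical copies were placed is not stated, so listings of such copies are uncertain.

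The 31 unlisted genes included RPL10L, RPL11, RPL12, RPL13A, RPL17, RPL18 on chromosome 1, RPL23, RPL23A, RPL26, RPL26L1, RPL29, RPL30, RPL35A, RPL36, RPL36A, RPL38, RPL4, RPL6, RPL7A, RPL7L1, RPL8, RPLP2, RPS15, RPS16, RPS2, RPS27, RPS28, RPS3 and RPSA. In 21 of them no library listed a peak within 5000 bp of an end or in the gene body. In 6 genes a peak centre lay in the body but beyond the window, among them RPS3 in 4 libraries, RPL13A in 3, RPL30 in 2, and RPL11 and RPS2 in 1 each. The nearest peak centres were 1224 bp from RPL8 and 1461 bp from RPL17. At the other extreme, the nearest peak was 92606 bp from RPL10L. By chromosome, the lowest share among those with at least 3 of the genes was on chromosome 12, where 2 of 6 were listed and 37.6% of all genes with a symbol were. On chromosome 2 it was 3 of 8, where 56.0% of genes with a symbol were listed.

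Peaks at these genes lay close to a gene end. Of the 270 peaks, 85.2% had a centre within 250 bp of the end, beside 69.6% at the other genes with a symbol. The median centre was 44 bp outside the gene, beside 15 bp inside at the other genes. A total of 52 listed genes had peaks at a single end, and 2, among them RPL3L, at both. Of the 46 genes listed in at least 2 libraries, 95.7% used a single end, beside 93.4% of the other genes. Another annotated gene end lay in the window of 25 of the 54 listed genes, and it belonged to a protein-coding gene in 16. Of all the peaks, 193 (71.5%) were nearest to the ribosomal protein gene's own end, and for 36 genes all of them were. RPL27A, RPL3L and RPL14 had no peak nearest to their own end, and RPL27A peaks lay 879 bp inside the gene, where the end of TRIM66 is.

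Peak width moved with the label. The median was 529 bp in the 200 libraries and 1028 bp in the 600 libraries, beside 587 and 1106 bp at the other genes with a symbol. Within a library, the genes' median width was below that of all gene-end peaks in 14 of the 17 libraries that listed any of them. By −log10 p the peaks had a median of 4.44 and ran from 3.01 to 8.15. Their median within-library percentile was 55.4, beside 59.3 at the other genes with a symbol. The median for these genes was below that of all gene-end peaks in 12 of the 17 libraries, equal in 3 and above it in 2.

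**Figure D4:**
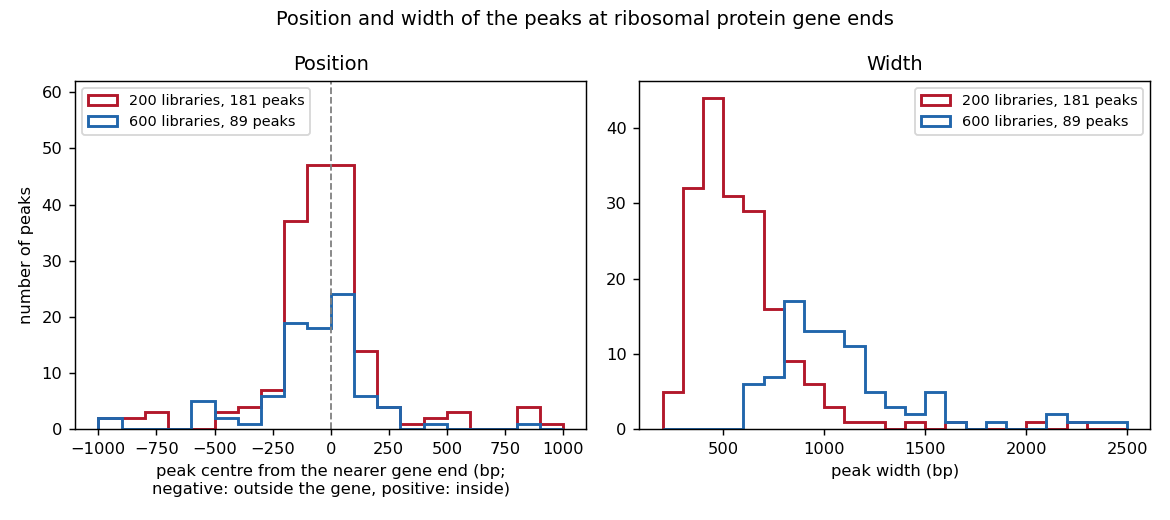
Left, number of peaks by the distance of the peak centre from the nearer gene end in bp, negative outside and positive inside the gene, with a dashed line at the end itself; right, number of peaks by peak width in bp. Red lines are the 181 peaks of the 200 libraries and blue lines the 89 peaks of the 600 libraries; positions overlap, while widths centre on 529 and 1028 bp.

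How many of the genes a library listed followed its number of peaks. In the high fat 200 libraries the counts were 40, 0, 9, 4, 1, 0 and 44 for replicates 1 to 7, with a median of 4. In the low fat 200 libraries they were 35, 0, 1, 8, 0, 15 and 22, with a median of 8. For high fat 600 they were 20, 0, 4, 0, 0, 0 and 29, with a median of 0, and in the low fat 600 libraries 16, 0, 0, 2, 0, 5 and 13, with a median of 2. The counts of high and low fat libraries overlapped within each label. The 11 libraries that listed no gene all held under 1000 peaks, and the 15 libraries with at least 1000 peaks held 265 of the 268 listings. The 4 libraries with the most listings held 148 of them (55.2%). They were high fat 200 replicates 1 and 7, low fat 200 replicate 1 and high fat 600 replicate 7. These also listed the most protein-coding genes of all libraries, at 7081, 6272, 5119 and 4221, so the concentration is not particular to this set. Of the 54 listed genes, 48 were listed in high fat 200 replicate 1 or 7, and 6 in no other library than these. Such counts are not given here for all protein-coding genes.

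Beside all protein-coding genes, the share of ribosomal protein genes was higher in 13 of the 15 libraries with at least 1000 peaks, and beside the genes with a symbol in 11 of them. The margin varied among the libraries with many listings. High fat 200 replicate 7 listed 51.8% of the ribosomal protein genes and 36.6% of the genes with a symbol, and low fat 200 replicate 1 listed 41.2% and 29.9%. The shares were closer in high fat 200 replicate 1, at 47.1% and 41.1%, and in low fat 200 replicate 7, at 25.9% and 24.3%. Among the 1000 strongest peaks of each of these 15 libraries, 0 to 7 of the genes were represented, with a median of 4. High fat 200 replicate 3 stood apart: it held 6288 peaks, but 22.3% of them at gene ends, and its 9 listed genes included none in its 1000 strongest peaks. The median percentile of its 9 genes was 30.4, beside 70.8 for all its gene-end peaks. RPS9 and RPL27 were listed in this library and in no other, and high fat 600 replicate 3 shared 0 of its 9 genes.

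**Figure D5:**
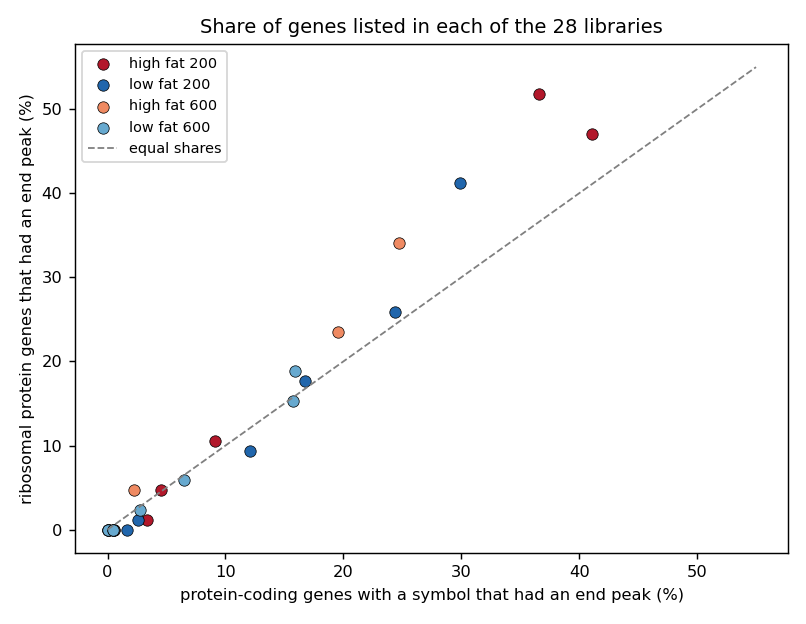
Share of the 85 ribosomal protein genes (vertical axis, %) against the share of protein-coding genes with a symbol (horizontal axis, %) that had an end peak, 1 point per library, coloured by group; the dashed line marks equal shares. High fat 200 replicate 7 lies farthest above the line, at 51.8% and 36.6%, and 11 libraries lie at 0% of the ribosomal protein genes.

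The comparison of high with low fat content asks whether chromatin access differs with the fatness of the pigs. None of the ribosomal protein genes passed the test in it. Each protein-coding gene listed in at least 3 libraries of a comparison was tested on the number of libraries that listed it, with a two-sided Fisher's exact test and Benjamini-Hochberg adjustment over all genes tested. The labels do not say that the replicates are separate animals, so the p-values take libraries as the units and need not hold for animals. In the 200 libraries 5191 genes were tested and 0 passed an adjusted p of 0.05 (0%), nor did any at an unadjusted p of 0.05. Of the 33 ribosomal protein genes tested, 10 were listed in more high fat libraries (27.6% of all genes tested), 10 in more low fat libraries (44.2%) and 13 in equal numbers (28.2%).

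At least 1 high fat 200 library listed 50 of the 85 genes (43.9% of all protein-coding genes), and at least 1 low fat 200 library listed 37 (31.9%). RPS12, RPL7 and RPS3A were each listed in 2 high fat and 4 low fat libraries, with an exact p of 0.592 and an adjusted p of 1 for each. RPL13, RPL14 and RPL35, for large subunit proteins, were listed in 2 high fat libraries and 1 low fat library, and RPS20 in 3 and 4, each with an exact p of 1. Every library that listed one of these genes in this comparison held at least 1000 peaks.

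In the 600 libraries 2704 genes were tested and 0 passed (0%), also unadjusted. Of the 17 ribosomal protein genes tested, 6 were listed in more high fat libraries (24.1% of all genes tested), 4 in more low fat libraries (40.5%) and 7 in equal numbers (35.4%). At least 1 high fat 600 library listed 33 of the 85 genes (24.8% of all genes), and at least 1 low fat 600 library listed 19 (17.4%). RPS13, on chromosome 2 from 42030585 to 42033382, had the smallest p, with 3 high fat libraries and 0 low fat libraries (exact p = 0.192, adjusted p = 1). Its −log10 p was 4.67 in replicate 1, 3.17 in replicate 3 and 3.61 in replicate 7 of high fat 600. In the 200 libraries RPS13 was listed in 3 libraries of each fat group. RPS29 and RPL7 were listed in 2 high fat and 4 low fat 600 libraries (exact p = 0.592 for each). RPL24, RPL5 and RPS23 were listed in 2 against 1, RPS6 in 2 against 3 and RPL34 in 1 against 2, each with an exact p of 1.

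When the 200 and 600 libraries that share a title number were treated as 1 animal, which listed a gene if either library did, 5447 genes were tested and 0 passed (0%), also unadjusted. Of the 34 ribosomal protein genes tested, 12 were listed in more high fat animals (27.1% of all genes tested), 11 in more low fat animals (43.4%) and 11 in equal numbers (29.5%). That these libraries pair by animal is an assumption. Whether the fat difference itself differed between the 200 and 600 libraries was examined over the 14 pairs with an exact permutation test. None of 5741 genes passed the adjusted threshold (0%), and 4 had an unadjusted p under 0.05 (0.0697%). Of the 37 ribosomal protein genes among those tested the smallest exact permutation p was 0.192, for RPS3A, with an adjusted p of 1. With 7 against 7 libraries a gene listed in 3 of one group and 0 of the other has an unadjusted Fisher's exact p of 0.192. A split of 5 against 0 is needed for 0.0210, so for genes listed in few libraries a difference was not detectable with these numbers. The smallest Fisher's exact p that 7 against 7 libraries can give is 0.000583. A single gene at that value would not pass an adjusted p of 0.05 over the 2704 or more genes tested per fat comparison. The 0 calls therefore do not show that the fat groups are alike.

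The 200 and 600 libraries differed in how many of the genes they listed: 52 in at least 1 library of the 200 set (46.1% of all protein-coding genes) and 35 in the 600 set (26%). Both sets listed 33, the 200 set alone 19, and the 600 set alone RPL32 and RPS10, each in 1 library. Of the listed ribosomal protein genes 61.1% were thus listed in both sets, beside 53.3% of all listed protein-coding genes (4880 in both, 4103 in the 200 set alone and 180 in the 600 set alone). The 200 libraries held 179 listings and the 600 libraries 89. Over 14 against 14 libraries, 5741 genes were tested with Fisher's exact test, without pairing by title number, and 0 passed an adjusted p of 0.05 (0%). At an unadjusted p under 0.05 in this test, 236 were listed more often in the 200 libraries (4.11%) and 1 in the 600 libraries (0.0174%), among them 0 ribosomal protein genes.

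Of the 37 ribosomal protein genes tested, 30 were listed in more 200 libraries (84% of all genes tested), 2 in more 600 libraries (6.15%) and 5 in equal numbers (9.81%). RPS4X, the X-linked gene of a small subunit protein, was listed in 4 libraries of the 200 set and 0 of the 600 set (Fisher's exact p = 0.0978, adjusted p = 0.831). RPLP1 and RPL27A were each listed in 5 and 1 (exact p = 0.165, adjusted p = 0.831). In the other direction, RPS27A was listed in 4 libraries of the 200 set and 6 of the 600 set (exact p = 0.695, adjusted p = 1), and RPS23 in 2 and 3 (exact p = 1). The 600 libraries hold fewer peaks than the 200 libraries, and the part of that in these counts was not tested.

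Within the libraries of the same title number, 80 of the 89 listings of the 600 set (89.9%) were shared with the 200 library, beside 89.4% for all protein-coding genes. In turn 44.7% of the 200 listings were shared with the 600 library, beside 43.6%. At the 80 shared listings the 600 peak was the narrower one in 4 (5%, beside 8.94% for all protein-coding genes), and its −log10 p was the lower one in 77 (96.3%, beside 95.7% for all protein-coding genes). In the pair of high fat replicate 7 the 200 library listed 44 of the genes, the 600 library 29, and both 27. In the pair of high fat replicate 1, all 20 genes of the 600 library were also listed in the 200 library, at a median difference in −log10 p of -1.67. Low fat replicate 1 gave 16 of 16 shared and a median difference of -1.68.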

How the data were processed

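Per the submitters' processing notes, FastQC, BWA, SAMtools, Picard and Genrich were used with the build Sscrofa11.1; versions and settings are not given in the sources used here. Per the file headers, the table holds each peak's position, score, signal value and p-value column. The deposited score ran from 800 to 1000 and was not used further; the deposited signal value started at 400.0 and was not tested. The deposited p-value column runs from 2.83 to 7880.9 and was taken as −log10 p; it is the authors' value per peak and was used to describe and rank peaks. Some called peaks had been removed before deposit, by a rule not given in the sources used here. Genes came from RefSeq on Sscrofa11.1; no genome sequence was used here, so no sequence is shown. Listing within 1000 bp of a gene end was computed with Python 3.11.15, pandas 2.3.3 and scipy 1.17.1. Of the tests used (Fisher's exact, sign and permutation), only the Fisher's exact test was tried on simulated data. Genes named were the 12 listed in most libraries, the unlisted ones and, per comparison and direction, the 4 with the smallest p; others are named as chosen after their values were seen, and a few genes are not reported here. The members, lists and tests were chosen with earlier results of these data known. Alternatives were windows of 500 and 2500 bp, overlap, stronger peaks, libraries with at least 1000 peaks, single libraries left out and the replicate block. The background of genes with a symbol was added after seeing the data.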

Additional observations from a re-analysis of the deposited data

How the results depend on the processing

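The count of 54 listed ribosomal protein genes lay between 53 and 58 with windows of 500 and 2500 bp or any overlap, was 40 with peaks at or above the label's median −log10 p, and 13 with the 1000 strongest peaks of each library, where the difference from all protein-coding genes was 2.16 percentage points instead of 16.5; the cause was not tested. Leaving out 1 library at a time gave 51 (without high fat 200 replicate 7) to 54 genes, differences of 15.3 to 21.2 points from all protein-coding genes and of 9.68 to 15.9 from other genes with a symbol, and 0 calls in every comparison. The number of genes called between the 600 and 200 libraries was 2 with a window of 2500 bp, of which 0 were ribosomal protein genes. High minus low fat listing turned direction for some genes, and the cause was not tested: to 14.3 percentage points for RPS3A (200 libraries and both labels) and RPL34 (600 libraries) and to -14.3 for RPS13 (both labels) with stronger peaks, and to 14.3 for RPL7 (600 libraries and both labels) with a window of 500 bp. With the replicate number as a block (exact sign test) 0 genes were called in the 4 comparisons (unadjusted 0, 0, 0 and 104), and the smallest p of a ribosomal protein gene was 0.125, for 600 against 200. The smallest exact sign test p is 0.0156 for 7 pairs and 0.000122 for 14. A single gene at these values could not pass after adjustment, so the 0 calls with the block do not show that the groups are alike. Same-numbered 200 and 600 libraries correlated above 0.1 in 7 of 14 pairs (-0.0084 to 0.650), and 6 correlated best with their own number. For high and low fat libraries of the same replicate number, the correlation was above 0.1 in 2 of 7 pairs of 200 libraries and 6 of 7 of 600 libraries. The main tests of high against low fat did not pair by replicate number, which served only as the block. The main test of 600 against 200 libraries was unpaired. Elsewhere pairing of 200 with 600 libraries by title number was used as an assumption. Counting peaks at annotated starts alone was not run, since the gene table gives no strand. Depth is unknown, so an unlisted gene cannot be set against a detection limit.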

Other observations

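Other genes of translation were listed as follows, with no test. Of 21 translation factors and associated genes, 17 (81%) were listed in at least 1 library, beside 52.9% of protein-coding genes with a symbol. EEF1A1, the factor that brings aminoacyl-tRNA to the ribosome, led in 17 libraries. The release factor ETF1 was listed in 12 and LARP1, which binds the pyrimidine tracts of ribosomal protein mRNAs, in 11. EEF1G, EEF2, FAU and NACA were listed in 0. RACK1, a small subunit protein and signalling scaffold, was listed in 5 libraries. Of 36 ribosome biogenesis genes, 31 (86.1%) were listed. UTP3 led in 12 libraries, with NCL (nucleolin) and TAF1D, of the RNA polymerase I machinery, in 11 each. BOP1 and PES1, which act together in large subunit assembly, RRP1B, TSR1 and GNL2 were listed in 0. By symbol, 56 of 74 mitochondrial ribosomal protein genes (75.7%), 41 of 47 translation initiation factor genes (87.2%) and 34 of 49 proteasome subunit genes (69.4%) were listed. The shares were 63.5% for the cytosolic ribosomal protein genes and 52.9% for all genes with a symbol. Median gene lengths of the mitochondrial, initiation factor and proteasome sets were 9504, 21884 and 11898 bp, against 3905 bp for the cytosolic ribosomal protein genes.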
